A study of Mus musculus and Rattus norvegicus with 96 samples.

Results

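The genes described here are 36 members of the cell cycle machinery, listed by symbol and grouped by what their products do. They comprise 6 cyclins and activators of the G1 and S phases, 8 genes of replication licensing and the sliding clamp, and 4 enzymes of nucleotide synthesis. The others are 5 regulators of entry into mitosis, 7 mitotic kinases and checkpoint genes, and 6 genes of the spindle and chromosome structure. Pcna, the sliding clamp, is counted below in the licensing group, though it is not a licensing factor. All 36 were among the 24543 genes listed in mouse liver, and 35 passed the filter on low counts. Cdkn3, a mitotic phosphatase, did not pass it.

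The study asked how formalin fixation alters transcript profiles and the response to a reference chemical. Male B6C3F1 mice, 10 to 11 weeks old, drank water holding 600 ppm phenobarbital (PB) or water alone (Con) for 7 days, with 6 mice in each arm. Pieces of the left lateral, caudate and right medial lobes of each of the 12 livers were kept in 4 ways: frozen (FR), put straight into 10% formalin and embedded in paraffin (FFPE), frozen and later formalin-fixed and embedded (FR > FFPE), or frozen and later fixed in 70% ethanol and embedded (FR > OH). By the labels, time in formalin was 18 to 24 hours for FFPE and FR > FFPE. Total RNA-seq was run on the 48 mouse libraries. AML12, a mouse hepatocyte line from a CD-1 male that carries a human TGF alpha transgene, was exposed for 10 minutes to 0.006%, 0.03% or 0.1% formalin or to phosphate buffered saline (vehicle), with 3 libraries each. Liver of male F344 rats (FR, FR > FFPE and FFPE) and lung of male WKY rats (FR, FR > FFPE, and FFPE after 1 year in formalin) came from vehicle control animals, with 6 libraries per group (5 used for frozen lung) and no age given. The other fixed rat groups spent 18 to 24 hours in formalin, so the fixed lung groups differ in fixation time as well as in freezing. The cells and rats were measured by TempO-Seq, a probe ligation assay, on lysates of cells and embedded tissue but on purified RNA of frozen tissue.

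Cells that divide copy their DNA once and then separate the copies. Cyclin D, cyclin E and the E2F factors open the S phase, the Mcm proteins and Cdc6 mark replication origins before it, and cyclin B with Cdk1, the Polo and Aurora kinases and the spindle motors drive mitosis after it. Most hepatocytes of an adult liver rest outside the cycle, and PB, which acts on the nuclear receptor CAR, is known as a mitogen for rodent hepatocytes. In bulk tissue, a change in the number of cells of a type cannot be told apart from a change in the RNA each cell holds.

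Genes of the cell cycle tend to share short promoter elements: the cell cycle homology region (CHR), the CCAAT box bound by NF-Y, and E2F sites. RefSeq promoters of 300 bases (250 before to 50 after the start, build GRCm38.p6) matched 29 of the 36 members. The CHR was searched as TTTGAA, and also as TTCGAA. On both strands these letters were in 15 of the 29 windows and in 19.2% of 32851 promoters of all genes. They stood in 13 of 15 windows of the mitotic groups and in 2 of 14 windows of the G1, replication and nucleotide groups. CCAAT was in 23 of 29 windows, against 37.4% of all promoters. E2F was searched as TTCCCGC, as TTCGCGC, as TTGGCGC and as TTGCCGC. A match to any was in 12 of 29 windows against 9.57% of all promoters, 8 of them in the 14 earlier-acting genes and 4 in the 15 mitotic genes. TTGGCGC on one strand can overlap TTCGCGC on the other, and a match is a run of letters, not a bound site.

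Promoters of 6 genes are shown because they belong to members whose PB response is described below, 4 mitotic and 2 of replication licensing, with capitals for every letter that is part of a match. They are those of Ccnb1 (chr13:100786437-100786736, minus strand), Ccnb2 (chr9:70421505-70421804, minus strand), Cdc20 (chr4:118437294-118437593, minus strand), Hmmr (chr11:40733388-40733687, minus strand), Mcm6 (chr1:128359656-128359955, minus strand) and Cdc6 (chr11:98907901-98908200, plus strand), each written 5′ to 3′ along the gene.
Ccnb1: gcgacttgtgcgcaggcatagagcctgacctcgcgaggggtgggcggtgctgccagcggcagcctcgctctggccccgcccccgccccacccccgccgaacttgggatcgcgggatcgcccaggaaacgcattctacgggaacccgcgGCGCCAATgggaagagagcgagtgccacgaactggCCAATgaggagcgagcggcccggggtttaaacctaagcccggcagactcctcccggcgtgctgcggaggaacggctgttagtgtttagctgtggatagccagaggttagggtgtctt
Ccnb2: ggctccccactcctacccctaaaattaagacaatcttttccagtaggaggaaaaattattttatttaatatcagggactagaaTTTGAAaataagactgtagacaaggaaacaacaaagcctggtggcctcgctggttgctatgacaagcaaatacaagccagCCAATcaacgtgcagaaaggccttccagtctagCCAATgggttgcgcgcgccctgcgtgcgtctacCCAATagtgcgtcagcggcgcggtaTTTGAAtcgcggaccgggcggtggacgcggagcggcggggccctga
Cdc20: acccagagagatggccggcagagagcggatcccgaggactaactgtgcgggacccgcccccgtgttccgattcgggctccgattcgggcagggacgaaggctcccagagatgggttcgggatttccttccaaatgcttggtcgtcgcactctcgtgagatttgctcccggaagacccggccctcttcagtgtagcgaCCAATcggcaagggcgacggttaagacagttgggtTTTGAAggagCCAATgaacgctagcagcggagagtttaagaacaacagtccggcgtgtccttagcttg
Hmmr: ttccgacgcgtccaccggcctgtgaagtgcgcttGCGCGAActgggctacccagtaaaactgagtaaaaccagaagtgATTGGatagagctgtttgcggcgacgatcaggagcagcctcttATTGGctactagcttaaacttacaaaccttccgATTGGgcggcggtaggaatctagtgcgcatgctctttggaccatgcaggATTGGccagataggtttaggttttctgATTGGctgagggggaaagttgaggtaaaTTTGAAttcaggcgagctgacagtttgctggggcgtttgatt
Mcm6: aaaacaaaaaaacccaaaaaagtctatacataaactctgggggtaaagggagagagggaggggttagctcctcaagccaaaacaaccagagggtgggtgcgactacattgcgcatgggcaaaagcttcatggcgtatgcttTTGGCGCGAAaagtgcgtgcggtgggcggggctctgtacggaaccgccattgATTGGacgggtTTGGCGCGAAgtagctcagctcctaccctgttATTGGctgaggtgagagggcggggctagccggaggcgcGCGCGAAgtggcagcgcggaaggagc
Cdc6: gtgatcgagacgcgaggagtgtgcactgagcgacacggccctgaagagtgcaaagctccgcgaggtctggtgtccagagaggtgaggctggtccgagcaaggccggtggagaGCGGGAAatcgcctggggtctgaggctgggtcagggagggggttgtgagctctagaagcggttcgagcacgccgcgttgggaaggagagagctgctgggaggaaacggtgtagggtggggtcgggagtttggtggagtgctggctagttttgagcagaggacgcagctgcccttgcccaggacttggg
Ccnb1 held no CHR match, 2 CCAAT boxes and 1 E2F match that overlaps one of them. Ccnb2, Cdc20 and Hmmr held 2, 1 and 1 CHR matches and 3, 2 and 5 CCAAT boxes, and Hmmr also 1 E2F match. Mcm6 held 5 E2F matches, some overlapping, 2 CCAAT boxes and no CHR match, and Cdc6 held 1 E2F match and neither other element. The Cdc6 window begins at 98907901, inside the gene, whose start in the annotation of the counts is 98907889. The E2f1 window, counted above but not shown, also lies inside its annotated gene. For both genes the matches, or their absence, do not describe the bases before that start.

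Mouse liver libraries held 4952797 to 13702672 counts, and values below are CPM, which is counts scaled to the library total. CPM does not correct for transcript length, so levels are compared between samples and not between genes. The PB marker Cyp2b10 was 1078 CPM or more in every PB library and 2.45 CPM or less in every Con library. A gene is called changed where edgeR's quasi-likelihood test gave a Benjamini-Hochberg adjusted p under 0.05 over all 13370 genes tested and the fold change was at least 2.

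Members were called higher in PB in every preparation, and none was called lower. In FR, 24 of 35 tested members were called higher in PB, against 1.74% of all genes tested. FFPE had 16 of 35 such members (1.65% of all genes), FR > FFPE had 23 (1.71%) and FR > OH had 26 (2.12%). The median log2 fold change of the 35 members was 1.71, 1.63, 1.93 and 1.78 in the same order, and that of all genes was 0.00355, 0.00767, 0.0625 and 0.02. The counts were 13 in FR (1.06% of all genes), 13 in FR > OH (1.32%), 14 in FR > FFPE (1.09%) and 15 in FFPE (1.2%) when mice 20B and 80B, which had the highest sums over the members, were left out of all preparations, a choice made after seeing these data. With a term for the L number of the sample titles they were 2 in FR (0.74% of all genes), 16 in FFPE (1.44%) and 14 in FR > OH (1.37%), and in FR > FFPE that number and treatment cannot be told apart. With that term, the PB estimate rests on libraries of both arms that share a number. These are 2 PB and 6 Con libraries in FR, without mice 20B and 80B, 4 and 6 in FFPE, and 6 and 3 in FR > OH. The fall to 2 calls in FR thus comes with fewer PB mice. Leaving out 1 mouse at a time, 16 of the 24 calls in FR held in every fit, as did 18 of 26 in FR > OH, 16 of 23 in FR > FFPE and 13 of 16 in FFPE.

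With all mice, a set of 16 members was called in all 4 preparations, namely Mcm5, Mcm6, Rrm2, Cdk1, Ccnb2, Foxm1, Plk1, Bub1, Bub1b, Cdc20, Mki67, Top2a, Kif11, Kif20a, Hmmr and Cenpf. Another 7 were called in all but FFPE (Ccne2, Ccna2, Cdc6, Ccnb1, Aurka, Aurkb and Birc5), 4 in 1 preparation (Mcm2 in FR, and E2f1, Mcm3 and Pcna in FR > OH), and 8 in none (Ccnd1, Ccne1, Cdc25a, Mcm4, Mcm7, Rrm1, Tyms and Tk1). Among the 16, the calls of Mcm5, Rrm2, Ccnb2, Cdc20, Mki67, Top2a, Kif20a, Hmmr and Cenpf held in every fit without 1 mouse. Others were less firm. In FR the call was lost in 9 of 12 such fits for Foxm1, in 8 for Bub1 and in 6 for Bub1b. In FR > FFPE the Kif11 call was lost in 7. Of the 7 members called in all but FFPE, Ccne2, Ccna2 and Ccnb1 held their calls in every fit. In FR > FFPE the call was lost in 8 of 12 fits for Aurkb, and in 6 for Aurka and for Birc5. The Cdc6 call was lost in 6 fits in FR and in 4 in each of FR > FFPE and FR > OH. The Pcna call in FR > OH was lost in 5, and the Mcm2 call in FR in 4.

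**Figure D1:**
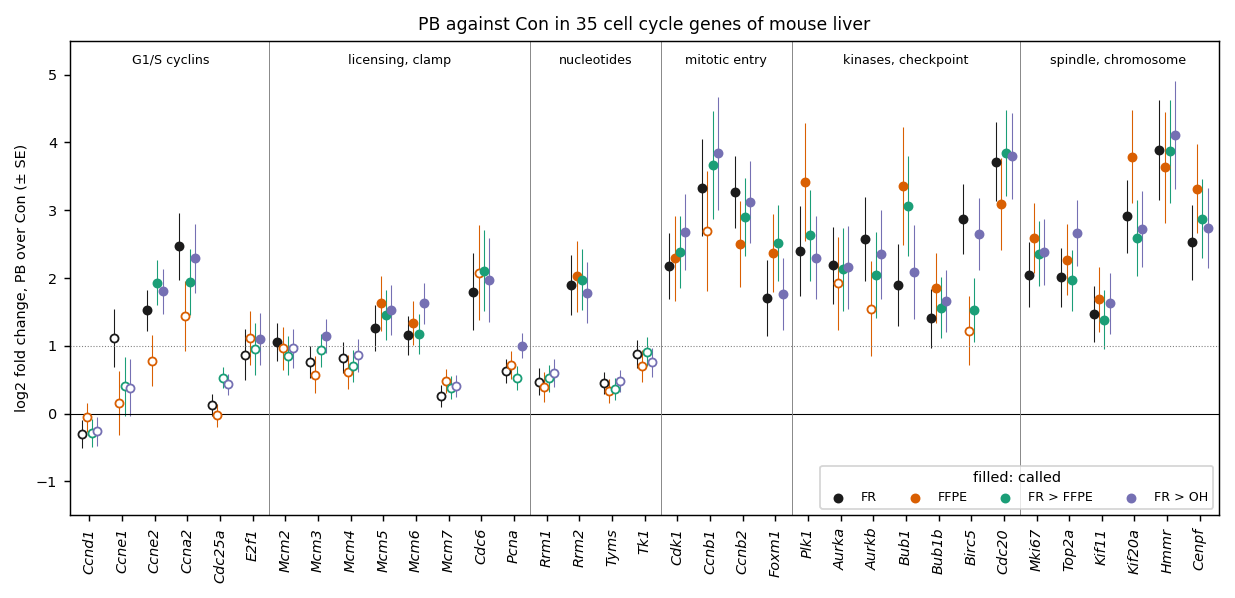
Log2 fold change of PB against Con (vertical axis) for the 35 tested members of mouse liver, grouped by role, with the 4 preparations in 4 colours (n = 6 PB and 6 Con libraries each) and a dotted line at a fold change of 2. Points are estimates, bars are standard errors and filled points are called. All points of the spindle group are filled, and Ccnd1 lies below 0 in all 4 preparations, from -0.3 to -0.05, without a call.

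Few of the G1 and S phase members were called. In FR 2 of 6 were called, Ccne2 and Ccna2, with a group median log2 fold change of 0.99. Ccnd1, the cyclin that couples growth signals to G1, measured 23.2 to 45.4 (median 28.7) CPM in Con and 20.1 to 38.3 (median 23.2) CPM in PB. In PB, 5 of the 6 mice lay at 20.1 to 24.7 CPM and mouse 80B at 38.3 CPM. The ranges also overlap without 80B, since the lowest Con mouse lay at 23.2 CPM. The log2 fold change was -0.3 (SE 0.208, adjusted p = 0.445) in FR, -0.26 (SE 0.209, adjusted p = 0.464) in FR > OH, -0.28 (SE 0.208, adjusted p = 0.523) in FR > FFPE and -0.05 (SE 0.215, adjusted p = 0.932) in FFPE, with no call. Ccna2, the cyclin of S phase and early mitosis, measured 0.614 to 1.47 (median 1.15) CPM in Con and 1.6 to 13.7 (median 3.23) CPM in PB. All 6 PB libraries lay above all 6 Con libraries in FR, and the log2 fold change was 2.47 (SE 0.493, adjusted p = 0.00049) in FR, 2.29 (SE 0.51, adjusted p = 0.00142) in FR > OH, 1.94 (SE 0.491, adjusted p = 0.00766) in FR > FFPE and 1.44 (SE 0.518, adjusted p = 0.0881) in FFPE. Ccne2, a cyclin E that starts S phase, had a log2 fold change of 1.52 (SE 0.302, adjusted p = 0.000431) in FR and 0.78 (SE 0.381, adjusted p = 0.248) in FFPE. Ccne1, its paralog, and Cdc25a, a phosphatase that activates the cyclin-dependent kinases, were called in no preparation, and E2f1, a transcription factor of S phase genes, in FR > OH alone, with a log2 fold change of 1.1 (SE 0.382, adjusted p = 0.0493). The E2f1 call was lost in 9 of the 12 fits without 1 mouse.

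Of the 8 genes of the licensing group, 4 were called in FR (Mcm2, Mcm5, Mcm6 and Cdc6), 5 in FR > OH, Pcna among them, 3 in FR > FFPE and 2 in FFPE. Mcm6, a subunit of the replicative helicase, measured 4.14 to 10.4 (median 8.2) CPM in Con and 9.58 to 26 (median 14.5) CPM in PB in FR, with log2 fold changes of 1.15 (SE 0.29, adjusted p = 0.00628) in FR, 1.63 (SE 0.304, adjusted p = 0.000143) in FR > OH, 1.18 (SE 0.298, adjusted p = 0.00789) in FR > FFPE and 1.34 (SE 0.323, adjusted p = 0.00582) in FFPE. Cdc6, which loads that helicase, measured 0.0782 to 0.511 (median 0.236) CPM in Con and 0.638 to 1.82 (median 0.736) CPM in PB in FR, so that the Con values rest on few counts. Pcna, the clamp that holds the polymerases on DNA, measured 11.9 to 15.9 (median 14.2) CPM in Con and 12.6 to 29.2 (median 21.4) CPM in PB in FR. The lowest PB mouse lay within the Con range there. Its log2 fold change was 0.63 (SE 0.172, adjusted p = 0.013) in FR, 1.00 (SE 0.186, adjusted p = 0.000135) in FR > OH, 0.53 (SE 0.182, adjusted p = 0.0693) in FR > FFPE and 0.72 (SE 0.208, adjusted p = 0.0253) in FFPE, and it met the fold criterion only in FR > OH. Mcm4 and Mcm7, also helicase subunits, were called in none, with log2 fold changes from 0.26 to 0.86.

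Among the 4 enzymes of nucleotide synthesis, Rrm2, the regulated subunit of ribonucleotide reductase, was called in all 4 preparations and measured 1.38 to 3.35 (median 2.26) CPM in Con and 2.08 to 16.7 (median 6.71) CPM in PB in FR. The fitted log2 fold changes were 1.9 (SE 0.441, adjusted p = 0.00278) in FR, 1.78 (SE 0.449, adjusted p = 0.00507) in FR > OH, 1.97 (SE 0.449, adjusted p = 0.00252) in FR > FFPE and 2.02 (SE 0.522, adjusted p = 0.0103) in FFPE. Rrm1, the other subunit, Tyms, which makes thymidylate, and Tk1, the thymidine salvage kinase, were called in none. Tk1 had an adjusted p of 0.00396 in FR at a log2 fold change of 0.88, which misses the fold criterion.

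Regulators of entry into mitosis were called in every tested case but 1. Ccnb1, the cyclin that activates Cdk1, measured 0 to 0.626 (median 0.371) CPM in Con and 0.97 to 8.93 (median 1.67) CPM in PB in FR. The lowest PB mouse lay above the highest Con mouse, and the log2 fold change was 3.33 (SE 0.715, adjusted p = 0.00117) in FR, 3.84 (SE 0.828, adjusted p = 0.00101) in FR > OH, 3.67 (SE 0.795, adjusted p = 0.00138) in FR > FFPE and 2.7 (SE 0.884, adjusted p = 0.0541) in FFPE. Ccnb2, the second B-type cyclin, measured 0.17 to 0.9 (median 0.427) CPM in Con and 1.53 to 9.09 (median 2.52) CPM in PB in FR, again without overlap. PB against Con gave log2 fold changes of 3.27 (SE 0.531, adjusted p = 1.63e-05) in FR, 3.12 (SE 0.606, adjusted p = 0.000258) in FR > OH, 2.9 (SE 0.579, adjusted p = 0.000499) in FR > FFPE and 2.5 (SE 0.635, adjusted p = 0.00906) in FFPE. Cdk1, the kinase that both bind, gave 2.18 in FR and 2.29 in FFPE, and Foxm1, a transcription factor of late cell cycle genes, gave 1.71 and 2.37, all 4 values called. Leaving out 1 mouse at a time, the FR call of Foxm1 was lost in 9 of 12 fits and the FFPE call of Cdk1 in 3. Cdkn3, left out by the filter, counted 0 to 2 reads in the Con libraries and 1 to 27 in the PB libraries of FR.

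All 7 mitotic kinases and checkpoint genes were called in FR, FR > FFPE and FR > OH, and 4 of 7 in FFPE. Cdc20, which targets the anaphase-promoting complex, measured 0.0788 to 0.826 (median 0.49) CPM in Con and 2.02 to 12.8 (median 5.07) CPM in PB in FR. No PB value reached down to the Con values, and the log2 fold change was 3.72 (SE 0.578, adjusted p = 7.32e-06) in FR, 3.8 (SE 0.634, adjusted p = 2.3e-05) in FR > OH, 3.84 (SE 0.634, adjusted p = 2.44e-05) in FR > FFPE and 3.09 (SE 0.676, adjusted p = 0.00197) in FFPE. Plk1, the Polo kinase, measured 0.0767 to 0.394 (median 0.32) CPM in Con and 0.404 to 3.14 (median 0.817) CPM in PB in FR, where the groups lie close together but do not overlap. On the log2 scale PB differed from Con by 2.4 (SE 0.66, adjusted p = 0.0137) in FR, 2.3 (SE 0.616, adjusted p = 0.00885) in FR > OH, 2.63 (SE 0.671, adjusted p = 0.00822) in FR > FFPE and 3.41 (SE 0.87, adjusted p = 0.00947) in FFPE.

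Aurkb and Birc5 encode the kinase and the survivin subunit of the chromosomal passenger complex. Aurkb measured 0 to 0.704 (median 0.243) CPM in Con and 0.479 to 4.16 (median 1.16) CPM in PB in FR, with overlapping ranges, and log2 fold changes of 2.57 (SE 0.621, adjusted p = 0.0042) in FR, 2.35 (SE 0.652, adjusted p = 0.0118) in FR > OH, 2.04 (SE 0.634, adjusted p = 0.0374) in FR > FFPE and 1.55 (SE 0.7, adjusted p = 0.204) in FFPE. Birc5 measured 0.256 to 0.691 (median 0.562) CPM in Con and 1.44 to 9.05 (median 1.86) CPM in PB in FR, with no overlap. Its log2 fold change was 2.87 (SE 0.515, adjusted p = 9.72e-05) in FR, 2.65 (SE 0.533, adjusted p = 0.00041) in FR > OH, 1.53 (SE 0.475, adjusted p = 0.0371) in FR > FFPE and 1.22 (SE 0.513, adjusted p = 0.163) in FFPE. In FFPE its Con values, 0.986 to 2.25 (median 1.69) CPM, were higher than in FR. Aurka, the spindle pole kinase, and Bub1 and Bub1b, of the spindle checkpoint, gave 2.19, 1.9 and 1.41 in FR.

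The 6 genes of the spindle and chromosome structure were called in all 4 preparations. Mki67, the Ki-67 proliferation antigen, measured 4.17 to 9 (median 6.02) CPM in Con and 10.4 to 57 (median 14.5) CPM in PB in FR. In FFPE it measured 2.69 to 9.92 (median 7.87) CPM in Con and 19.3 to 84.5 (median 26.7) CPM in PB, and every PB mouse lay above every Con mouse in all 4 preparations. Its log2 fold change was 2.05 (SE 0.476, adjusted p = 0.00279) in FR, 2.38 (SE 0.489, adjusted p = 0.000552) in FR > OH, 2.36 (SE 0.481, adjusted p = 0.000647) in FR > FFPE and 2.59 (SE 0.512, adjusted p = 0.000512) in FFPE. Top2a, the topoisomerase that untangles sister chromatids, measured 2.15 to 4.34 (median 3.03) CPM in Con and 4.23 to 24.2 (median 7.53) CPM in PB in FR, where the lowest PB value lay just below the highest Con value. Fitted log2 fold changes were 2.01 (SE 0.435, adjusted p = 0.00133) in FR, 2.66 (SE 0.483, adjusted p = 9.31e-05) in FR > OH, 1.96 (SE 0.453, adjusted p = 0.00293) in FR > FFPE and 2.27 (SE 0.519, adjusted p = 0.00311) in FFPE.

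Hmmr, a spindle-associated hyaluronan receptor, had the largest rise of the members in FR. It measured 0.17 to 0.744 (median 0.353) CPM in Con and 2 to 13.6 (median 3.4) CPM in PB there, and its log2 fold change was 3.89 (SE 0.738, adjusted p = 0.000238) in FR, 4.11 (SE 0.797, adjusted p = 0.000254) in FR > OH, 3.87 (SE 0.762, adjusted p = 0.000411) in FR > FFPE and 3.64 (SE 0.82, adjusted p = 0.00278) in FFPE. In FFPE it measured 0 to 0.337 CPM in 5 Con mice and 3.07 CPM in Con mouse 8A, which lay within the PB range of 1.85 to 15.4 CPM. Without mouse 8A its log2 fold change in FFPE was 5.65, and 3 of the 6 Con libraries counted 0 there. Kif20a, a kinesin of cytokinesis, measured 0.844 to 1.36 (median 0.905) CPM in Con and 2.18 to 16.6 (median 4.24) CPM in PB in FR. In FFPE it measured 0.15 to 1.58 (median 0.371) CPM in Con and 3.24 to 17.4 (median 4.47) CPM in PB, and the groups overlapped in none of the 4 preparations. Its log2 fold change was 2.91 (SE 0.535, adjusted p = 0.000141) in FR, 2.73 (SE 0.557, adjusted p = 0.000513) in FR > OH, 2.59 (SE 0.563, adjusted p = 0.00142) in FR > FFPE and 3.79 (SE 0.686, adjusted p = 0.000141) in FFPE. Cenpf, of the outer kinetochore, measured 0.691 to 2.15 (median 1.33) CPM in Con and 2.95 to 16.2 (median 5.01) CPM in PB in FR, also without overlap, with log2 fold changes of 2.53 (SE 0.554, adjusted p = 0.00151) in FR, 2.74 (SE 0.589, adjusted p = 0.000965) in FR > OH, 2.88 (SE 0.581, adjusted p = 0.000577) in FR > FFPE and 3.32 (SE 0.658, adjusted p = 0.000549) in FFPE. Kif11, the motor that pushes the spindle poles apart, gave 1.47 in FR.

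Median log2 fold changes per role in FR were 0.99 for the G1 and S phase genes, 0.94 for licensing and 0.68 for nucleotide synthesis, and 2.73 for mitotic entry, 2.40 for kinases and checkpoint and 2.29 for the spindle. In FFPE they were 0.47, 0.84 and 0.55 for the first 3 groups and 2.44, 1.92 and 2.95 for the last 3. Members of a group share libraries and are not replicates, so no test was made between the groups.

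**Figure D2:**
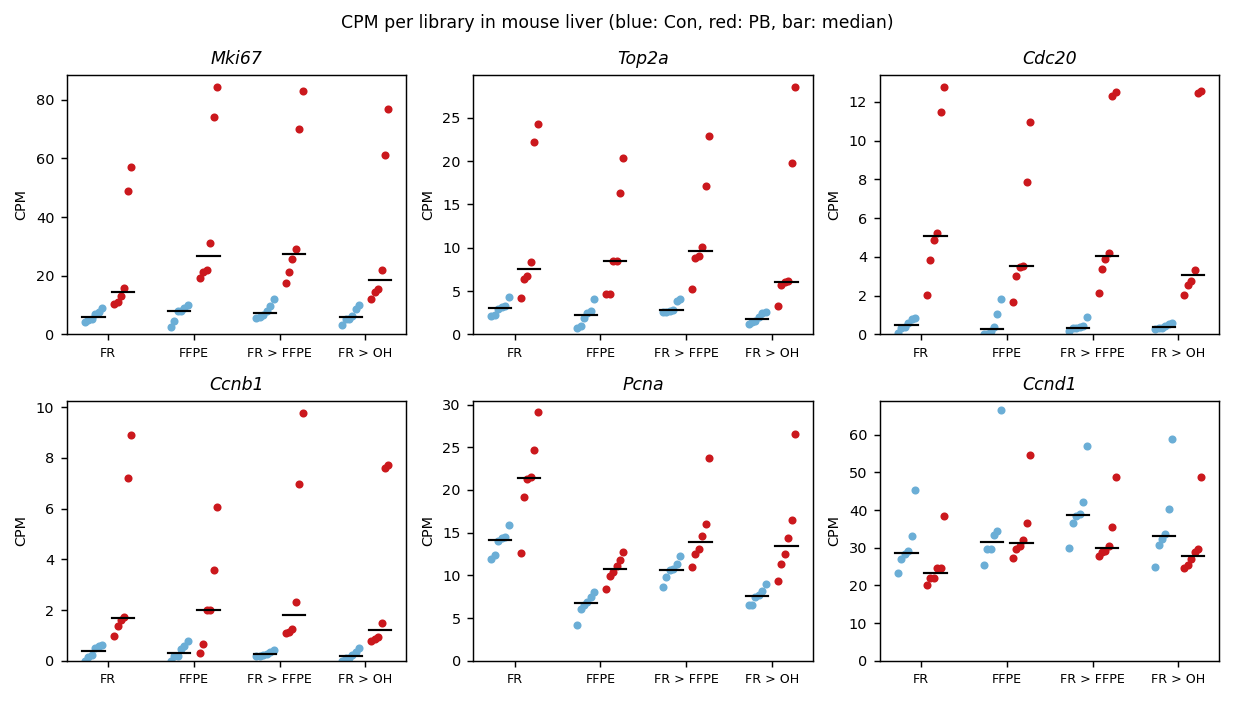
CPM of Mki67, Top2a, Cdc20, Ccnb1, Pcna and Ccnd1 in every mouse liver library, by preparation and treatment, with the bar at the median of 6. In each of the 4 preparations 2 PB mice lie far above the other 4 for Mki67 and Cdc20, while Ccnd1 overlaps between PB and Con. The highest PB mouse for Ccnd1 in FR is 80B, at 38.3 CPM.

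The PB response was uneven between mice. Summed over the 36 members, mice 20B and 80B measured 431.6 and 430.3 CPM in FR, the other 4 PB mice 153.4 to 207.3 CPM, and the 6 Con mice 117.2 to 144.3 CPM. The same mice were the 2 highest in all 4 preparations, at 451.0 and 398.3 CPM in FFPE, 507.8 and 422.9 CPM in FR > FFPE, and 491.9 and 434.9 CPM in FR > OH. The other 4 PB mice lay above all Con mice in FFPE (167.5 to 228.1 against 100.4 to 161.1 CPM) and in FR > FFPE (170.0 to 240.0 against 119.8 to 152.3 CPM). In FR > OH they overlapped Con, at 139.1 to 205.0 against 102.9 to 154.4 CPM, with PB mouse 75C below Con mouse 8A. Mki67 measured 48.97 and 57 CPM in mice 20B and 80B in FR, and 15.9 CPM at most in the other 4. They were the 2 highest PB mice for 34 of 36 members in FR, and for 27, 30 and 31 in FFPE, FR > FFPE and FR > OH. The median ratio of a member's mean in these 2 mice to the Con mean was 6.18 in FR, against 1.96 for the other 4 mice. Both mice were picked by their sums over the same members, so these counts and ratios follow in part from that choice. No share over all genes is set beside them. FR, FR > FFPE and FR > OH were portions of the same frozen samples, so the order was seen in 4 preparations of the same animals and not in more animals.

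All 6 PB libraries lay above all 6 Con libraries for 15 of 36 members in FR, against 4.2% of all genes tested. FFPE had 7 such members (2.12% of all genes), FR > FFPE had 12 (3.19%) and FR > OH had 13 (4.26%). Without mice 20B and 80B, 31 or 32 of 34 tested members had a value above Con in each preparation, with median log2 fold changes of 0.891 in FR, 0.999 in FR > OH, 1.02 in FR > FFPE and 1.09 in FFPE. Mouse 75C had the lowest sum of the PB mice in all 4 preparations.

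**Figure D3:**
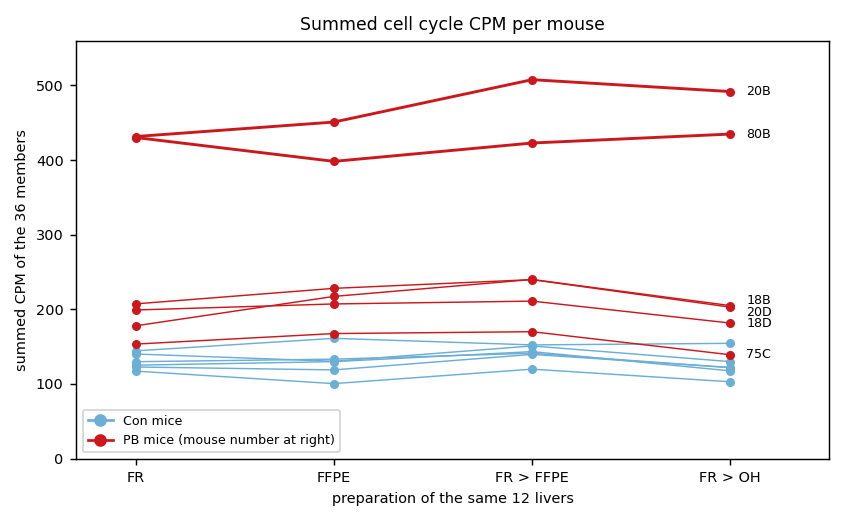
Summed CPM of the 36 members in each mouse (vertical axis) across the 4 preparations, with lines joining the pieces of one liver and PB mice labelled. Mice 20B and 80B stay on top at 398.3 CPM or more, and in FR the other PB mice lie at 153.4 to 207.3 CPM above the Con mice at 117.2 to 144.3 CPM. In FR > OH PB mouse 75C, at 139.1 CPM, lies below Con mouse 8A, at 154.4 CPM.

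Ccnd1 ordered the mice in another way. In Con, mouse 8A was highest in all 4 preparations, at 45.4, 66.7, 56.96 and 58.97 CPM in FR, FFPE, FR > FFPE and FR > OH. In PB, mouse 80B was highest in all 4, at 38.3, 54.6, 48.7 and 48.8 CPM, while 20B was not set apart.

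The number after L in the sample titles was not balanced over treatment. The labels do not say what L stands for. Each of its 5 values was given to 9 or 10 libraries, which is not the number per sequencing lane that the methods state, so it may not be the lane. In FR, 2 PB libraries shared L2 with all 6 Con libraries, and the other 4, mice 20B and 80B among them, carried L3. With this number as a term of the fit, the 2 members called in FR were Ccne2 and Cdc20, and in FR, FFPE and FR > OH 33, 33 and 34 of 35 members had a value above Con, with medians of 0.90, 1.67 and 1.82. In FR > FFPE all PB libraries carried L4 and all Con libraries L3. Within L2 of FR, the 2 PB sums were 177.9 and 199.1 CPM against 117.2 to 144.3 CPM in Con. Mice 20B and 80B were also highest where all 6 PB libraries carried 1 number, which was so for FR > OH and for FR > FFPE.

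No member's PB response was called different between a preparation and FR. The interaction test, a difference of differences in the same edgeR fit, called 0 of 35 members and 0% of all genes for FFPE, 0 and 0% for FR > FFPE, and 0 and 0% for FR > OH, with all adjusted p of the members at 1. At an unadjusted p under 0.05 there were 463, 288 and 305 genes, with 1, 0 and 0 members among them. DESeq2 also called 0 members in each. Member estimates ran from -1.65 to 1.46 for FFPE, -1.34 to 1.16 for FR > FFPE and -0.73 to 0.65 for FR > OH, and estimates of that size did not pass the test. The 7 members called everywhere but in FFPE are therefore not shown to respond less there.

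Levels of the members were also compared between preparations. No member met both criteria in both Con and PB for FFPE vs. FR, where 10.8% of all genes did, for FR > FFPE vs. FR (3.98% of all genes) or for FR > OH vs. FR (2.56%). With library totals, FFPE vs. FR had 1540 genes called higher and 233 lower in Con, and 1924 and 288 in PB. The study itself reported mostly down-regulated genes in that comparison, so with library totals the direction over all genes differs from the study's. DESeq2 and edgeR with TMM factors, which rescale each library to the bulk of its genes, called Pcna lower in FFPE, where they called 3.75% and 3.62% of all genes lower. A library size taken from the deposited CPM values called 8 members lower there (Ccne2, Mcm3, Mcm4, Mcm5, Pcna, Rrm1, Cdk1 and Top2a), against 22% of all genes, at medians of all genes of -0.64 in Con and -0.62 in PB.

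Pcna had the smallest adjusted p in FFPE vs. FR. Con livers measured 11.9 to 15.9 (median 14.2) CPM in FR and 4.15 to 8.05 (median 6.72) CPM in FFPE, without overlap, and PB livers 12.6 to 29.2 (median 21.4) and 8.42 to 12.7 (median 10.7) CPM. The log2 fold change was -1.09 (SE 0.197, adjusted p = 6.88e-06) in Con and -0.999 (SE 0.184, adjusted p = 8.1e-06) in PB, just inside and just outside the fold criterion. In FR > OH vs. FR it was -0.87 (SE 0.185, adjusted p = 0.000157) in Con and -0.49 (SE 0.173, adjusted p = 0.02) in PB, and in FR > FFPE vs. FR -0.4 (SE 0.181, adjusted p = 0.0673) and -0.5 (SE 0.173, adjusted p = 0.0127). Cdc25a went the other way in FFPE vs. FR, at 0.79 (SE 0.161, adjusted p = 4.14e-05) in Con and 0.64 (SE 0.159, adjusted p = 0.000581) in PB. Its Con livers measured 2.65 to 4.85 (median 3.81) CPM in FR and 4.81 to 8.62 (median 6.41) CPM in FFPE. In PB it was 0.69 (SE 0.153, adjusted p = 0.000158) in FR > FFPE and 0.6 (SE 0.154, adjusted p = 0.00163) in FR > OH.

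Birc5 met both criteria in Con alone, at 1.61 (SE 0.598, adjusted p = 0.0191) in FFPE and 1.47 (SE 0.576, adjusted p = 0.0329) in FR > FFPE, and Foxm1 in PB alone, at 1.4 (SE 0.485, adjusted p = 0.0116) and 1.15 (SE 0.475, adjusted p = 0.0357). Of the other members among the 3 smallest adjusted p of a comparison, none met both criteria. In FR > FFPE vs. FR in Con this was Ccnd1 at 0.39 (SE 0.207, adjusted p = 0.117). In FR > OH vs. FR it was Ccne1 at 0.91 (SE 0.447, adjusted p = 0.1) and Rrm1 at -0.39 (SE 0.203, adjusted p = 0.124) in Con, and Foxm1 at 0.86 (SE 0.48, adjusted p = 0.158) in PB. The scale bears on these values. With library totals, the median log2 fold change of all genes was 0.32 in FFPE vs. FR in both arms, 0.30 and 0.38 in FR > FFPE vs. FR, and 0.17 and 0.19 in FR > OH vs. FR, and with TMM factors it was 0.0422 at most. The member medians were -0.04 and -0.03 in FFPE vs. FR by library totals, and -0.31 and -0.32 by TMM.

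**Figure D4:**
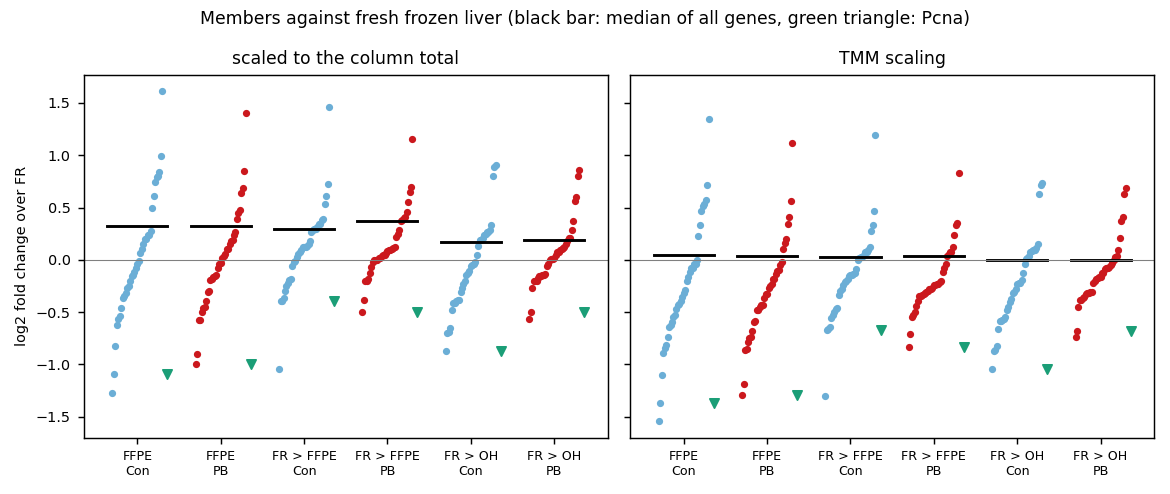
Log2 fold change of each member in FFPE, FR > FFPE and FR > OH against FR, in Con and in PB, with library totals and with TMM factors as the scale. The black bar is the median of all genes (0.32 in FFPE Con with library totals, 0.0422 with TMM) and the green triangle is Pcna, at -1.09 in FFPE Con and -0.999 in FFPE PB with library totals.

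Other genes of the cycle stood on lists kept apart from the members, and called shares of all genes are those given above. Of 40 tested genes on a list of other mitotic genes, 23 were called higher in FR, 28 in FR > OH, 25 in FR > FFPE and 22 in FFPE, and none lower. The list medians were 1.76, 1.93, 1.8 and 1.78 in that order on the log2 scale. Without mice 20B and 80B, 16, 13, 16 and 16 were called in that order, and with the term for the L number 2 in FR, 13 in FR > OH and 18 in FFPE. The largest rises were those of Ckap2l (3.32) and Ckap2 (3.30) in FR, Ckap2 (4.23) and Nuf2 (3.94) in FFPE, Nuf2 (3.69) and Ckap2l (3.52) in FR > FFPE, and Ckap2 (4.07) and Prc1 (3.41) in FR > OH. Ckap2 and Ckap2l bind spindle microtubules, Nuf2 belongs to the kinetochore, and Prc1 bundles the central spindle.

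Of 29 tested genes on a list of other replication genes, 3, 4, 4 and 7 were called higher in FR, FFPE, FR > FFPE and FR > OH, with list medians of 0.47, 0.58, 0.62 and 0.63, and most were not called. Without mice 20B and 80B these counts were 1, 0, 1 and 2, and with the term for the L number 0 in FR, 3 in FFPE and 3 in FR > OH. Uhrf1, which maintains DNA methylation at the fork, rose by log2 fold changes of 2.81 in FR and 2.11 in FFPE, and Chaf1b, of a histone chaperone, by 2.01 and 1.91. In FR > FFPE the largest were Uhrf1 (2.31) and Gins2 (2.00), a helicase cofactor, and in FR > OH Gins2 (3.09) and Uhrf1 (2.57). On a list of 19 tested inhibitors, pocket proteins and checkpoint kinases, Chek1 (1.61) and Wee1 (1.39) were called in FR, none in FFPE, Wee1 (1.35) and Chek1 (1.32) in FR > FFPE, and Chek1 (1.91), Wee1 (1.21) and Cdkn2c (1.2) in FR > OH. Both Chek1 and Wee1 restrain entry into mitosis. Among 16 other cyclins, kinases and E2F factors, E2f2 alone was called, in FR (1.12) and FR > FFPE (1.03). Without mice 20B and 80B, the former list had 1 call in each of FR, FR > FFPE and FR > OH, and the latter had none. With the term for the L number, the former had 0 calls in FR, 0 in FFPE and 1 in FR > OH, and the latter had none.

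Markers of other cells of the liver were read beside this. Of 6 Kupffer cell and macrophage genes, 6 were higher in PB in each preparation and none was called. Their summed level in FR was 247.9 to 528.7 CPM in PB and 214.8 to 386.0 CPM in Con. Of 7 hepatocyte genes, 1 was higher in FR and none was called, at 67080 to 109100 CPM in PB and 85100 to 122200 CPM in Con. The 6 cholangiocyte and epithelial genes summed to 277.0 to 448.5 CPM in PB and 205.9 to 292.0 CPM in Con in FR, 5 of 6 were higher and none was called. The 7 leukocyte genes summed to 16.2 to 30.4 CPM in PB and 13.5 to 20.4 CPM in Con, and the 5 endothelial genes to 263.8 to 337.9 and 267.5 to 341.9 CPM. The 6 erythroid genes ranged more widely, at 339.6 to 1036 CPM in PB and 424.3 to 677.9 CPM in Con. Of the stellate and fibroblast list, Col1a1 was called higher in FFPE (log2 fold change 1.34) and Acta2 in FR > OH (1.66). That list summed to 244.8 to 357.5 CPM in PB and 230.6 to 328.4 CPM in Con in FR. No gene of these lists was at 0 throughout an FR group, and their part in the members' response was not tested.

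In AML12 the 36 members summed to 5991 to 7704 CPM in the vehicle libraries, out of totals of 535015 to 2036428 counts. The 0.1% formalin libraries lay within that range at 6557 to 7490 CPM. Those at 0.006% and 0.03% reached above it, at 6403 to 8366 and 6016 to 8421 CPM. The lowest total was 444287 counts, at 0.006%. Of the 36 members, 33 had counts, and 31 passed the filter. Ccne1, Tyms and Foxm1 were listed at 0 in all 12 libraries, and Cdc6 and Pcna were under the filter. A gene listed at 0 may have had no probe, since 2749 of 24540 listed features had any count. The same holds for the hepatocyte markers Alb, Apob, Serpina1c and Cps1, listed at 0, while the other 3 gave 564.5 to 1010 CPM in the vehicle libraries. Epithelial markers summed to 23430 to 26340 CPM there. Nothing in the labels says whether the 3 libraries of a group were separate cultures, or those of the rats separate animals, so the p-values measure the spread between libraries.

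Exposure to 0.006% or 0.03% formalin gave no member call. The test called 0 of 31 members and 0% of all genes at each of these doses, with 30 and 55 genes and 0 and 1 members at an unadjusted p under 0.05, and DESeq2 also called 0 members. All members had an adjusted p of 1 at 0.006%, and 26 shared the smallest one, 0.975, at 0.03%. At 0.1%, 1 of 31 members was called, against 6.75% of all genes, and it was Mcm5. Its counts were 2, 3 and 4 in the vehicle libraries and 10, 12 and 18 at 0.1%, or 1.62 to 3.74 (median 1.96) and 4.3 to 11.6 (median 8.79) CPM. The groups do not overlap, and the log2 fold change was 1.89 (SE 0.61, adjusted p = 0.0317). The call rests on few reads and was lost with TMM factors, with DESeq2, with no filter, and without any of 4 of the 12 libraries (vehicle 90 and 94, and 0.1% formalin 95 and 96).

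Lower values at 0.1% were smaller in size. Plk1 measured 195 to 273 (median 270.3) CPM in vehicle and 142 to 162.5 (median 153) CPM at 0.1%, with a log2 fold change of -0.68 (SE 0.203, adjusted p = 0.0219), and Mcm2 measured 495 to 602 (median 513) and 321 to 429 (median 420) CPM, with -0.45 (SE 0.152, adjusted p = 0.0373). Neither pair of ranges overlaps, and neither met the fold criterion. The median over the members was -0.05 and over all genes 0.195 with library totals, and -0.24 and -0.00188 with TMM.

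In the rat tissues many members took a larger share of the library after embedding, as did most features measured. Rat liver listed 34 of the 36, with counts for 28 and 24 tested, and rat lung 35, with counts for 28 and 23 tested. Ccne1, Mcm7, Rrm2, Tk1, Foxm1 and Bub1b were listed at 0 in every library of both tissues, and Mki67 in lung, where a missing probe cannot be told apart from no expression. The 5 lung markers (Sftpc, Sftpb, Sftpa1, Scgb1a1 and Ager) were listed at 0 in rat lung as well. In liver FR > FFPE vs. FR, 11 of 24 members were called higher (51.4% of all features) and 2 lower (5.35%), and in FFPE vs. FR 19 were called higher (67.6%) and 0 lower (3.16%). In lung FR > FFPE vs. FR, 17 of 23 were called higher (50.9%) and 1 lower (6.98%), and in FFPE 1 yr vs. FR 16 higher (49.7%) and 1 lower (4.26%).

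These shares rest on the scale. The median log2 fold change of all features was 1.08 and 1.97 in liver and 1.06 and 0.99 in lung, and that of the members 0.86 and 1.68 in liver and 2.61 in both lung comparisons. With TMM factors the calls were 7 higher and 5 lower in liver FR > FFPE, 10 and 4 in liver FFPE, 15 and 2 in lung FR > FFPE and 15 and 3 in lung FFPE 1 yr. Of all features, TMM called 33.6% higher and 16.3% lower in liver FR > FFPE, 39.9% and 24.4% in liver FFPE, 37.8% and 18.3% in lung FR > FFPE, and 36.2% and 17.1% in lung FFPE 1 yr. On that scale the member medians were 0.15 and 0.08 in liver, below those of all features at 0.37 and 0.35, and 1.9 and 1.81 in lung, above those of all features at 0.35 and 0.24. The median library total was lower than in FR by a factor of 1.29 in liver FR > FFPE, 8.66 in liver FFPE, 1.93 in lung FR > FFPE and 2.6 in lung FFPE 1 yr. Liver FFPE libraries held 139474 to 889128 counts against 3040914 to 3970187 in FR, while those of liver FR > FFPE, at 2156624 to 3898087, overlapped FR. Embedded tissue was assayed as lysate and frozen tissue as purified RNA, so that preservation and input cannot be told apart. The median raw count lay above that of FR for 18 of 24 members in liver FR > FFPE and below it for 6. In liver FFPE it lay above for 10 and below for 14. In lung it lay above for 17 of 23 in FR > FFPE and below for 6, and for 15 and 8 in FFPE 1 yr. No share over all features is set beside these counts. Raw counts are given below since the CPM values rest on the scale.

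Of the rat liver G1 and S phase members, 4 of 5 tested were called higher in both embedded groups, as were 49.4% of all features. Ccnd1 counted 18 to 33 (median 27.5) in FR, 70 to 116 (median 89.5) in FR > FFPE and 16 to 38 (median 29.5) in FFPE, with log2 fold changes in CPM of 2.05 (SE 0.287) and 3.3 (SE 0.313). Ccne2 counted 12 to 29 (median 26.5) in FR, 42 to 81 (median 59.5) in FR > FFPE and 30 to 75 (median 58) in FFPE, with log2 fold changes in CPM of 1.67 (SE 0.4) and 4.61 (SE 0.433). Ccna2 counted 219 to 454 (median 282) in FR, 44 to 190 (median 77) in FR > FFPE and 49 to 72 (median 59.5) in FFPE, with log2 fold changes in CPM of -1.27 (SE 0.431) and 1.01 (SE 0.442). Ccna2 was called lower in FR > FFPE and higher in FFPE, its raw counts were below those of FR in both, and with TMM factors or DESeq2 its sign in FFPE turned negative. Its call in FFPE was lost in 6 of the 18 fits without 1 library, at 0.66 without FFPE library 82. Cdc25a counted 15 to 33 (median 18.5) in FR, 38 to 73 (median 50) in FR > FFPE and 23 to 74 (median 51) in FFPE, with log2 fold changes in CPM of 1.69 (SE 0.371) and 4.73 (SE 0.4). E2f1 counted 6 to 21 (median 12) in FR, 15 to 59 (median 29) in FR > FFPE and 16 to 28 (median 22) in FFPE, with log2 fold changes in CPM of 1.59 (SE 0.371) and 4.1 (SE 0.399). For Ccne2 every FR > FFPE and FFPE library had more counts than any FR library.

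Licensing members gave a mixed picture. Mcm4 counted 123 to 177 (median 136.5) in FR, 116 to 148 (median 138.5) in FR > FFPE and 23 to 65 (median 48.5) in FFPE, with log2 fold changes in CPM of 0.28 (SE 0.201) and 1.66 (SE 0.214). Mcm5 counted 9 to 21 (median 14.5) in FR, 37 to 199 (median 77.5) in FR > FFPE and 9 to 33 (median 28.5) in FFPE, with log2 fold changes in CPM of 3.00 (SE 0.33) and 4.03 (SE 0.356). Mcm6 counted 48 to 84 (median 58) in FR, 66 to 140 (median 96.5) in FR > FFPE and 6 to 32 (median 17) in FFPE, with log2 fold changes in CPM of 0.95 (SE 0.245) and 1.22 (SE 0.275). Mcm4 and Mcm6 were called in FFPE alone, and Mcm6 turned negative there with TMM factors or DESeq2. Cdc6 counted 5 to 12 (median 7.5) in FR, 16 to 125 (median 37) in FR > FFPE and 8 to 33 (median 18) in FFPE, with log2 fold changes in CPM of 2.77 (SE 0.503) and 4.55 (SE 0.543). Mcm2 and Pcna were called in neither comparison, and Pcna went from 221 to 320 (median 267) counts in FR to 81 to 150 (median 113.5) in FR > FFPE and 6 to 44 (median 24) in FFPE, at log2 fold changes in CPM of -0.89 (SE 0.217) and -0.36 (SE 0.235). Rrm1 and Tyms, the measured enzymes of nucleotide synthesis, were called in neither.

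Of the mitotic members outside the spindle group, 6 were tested and all were called higher in FFPE, where 67.6% of all features were. Cdk1 counted 12 to 42 (median 17.5) in FR, 59 to 118 (median 102.5) in FR > FFPE and 27 to 108 (median 59) in FFPE, with log2 fold changes in CPM of 2.45 (SE 0.251) and 4.66 (SE 0.27). Ccnb1 counted 14 to 33 (median 21.5) in FR, 31 to 69 (median 56) in FR > FFPE and 20 to 46 (median 27) in FFPE, with log2 fold changes in CPM of 1.53 (SE 0.331) and 3.8 (SE 0.358). Bub1 counted 4 to 15 (median 6) in FR, 16 to 54 (median 31) in FR > FFPE and 12 to 21 (median 16.5) in FFPE, with log2 fold changes in CPM of 2.4 (SE 0.366) and 4.36 (SE 0.395). Cdk1, Ccnb1 and Bub1 were called higher in both groups. Aurka counted 51 to 100 (median 95) in FR, 80 to 136 (median 98) in FR > FFPE and 15 to 41 (median 26) in FFPE, with log2 fold changes in CPM of 0.57 (SE 0.241) and 1.44 (SE 0.264). Birc5 counted 53 to 142 (median 87.5) in FR, 81 to 109 (median 99) in FR > FFPE and 21 to 66 (median 52) in FFPE, with log2 fold changes in CPM of 0.41 (SE 0.243) and 2.14 (SE 0.259). Cdc20 counted 381 to 569 (median 467.5) in FR, 339 to 1161 (median 526) in FR > FFPE and 40 to 175 (median 135.5) in FFPE, with log2 fold changes in CPM of 0.59 (SE 0.201) and 1.19 (SE 0.208). These 3 were called in FFPE alone, where their median raw counts were lower than in FR, and Aurka and Cdc20 turned negative with TMM factors or DESeq2.

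The spindle members included both the largest rise and the largest fall. Top2a counted 3 to 9 (median 7) in FR, 16 to 56 (median 24) in FR > FFPE and 1 to 4 (median 2.5) in FFPE, with log2 fold changes in CPM of 2.32 (SE 0.362) and 1.69 (SE 0.458). Kif20a counted 23 to 50 (median 38.5) in FR, 23 to 100 (median 50) in FR > FFPE and 8 to 24 (median 12.5) in FFPE, with log2 fold changes in CPM of 0.77 (SE 0.264) and 1.68 (SE 0.297). Cenpf counted 56 to 122 (median 72.5) in FR, 30 to 76 (median 49.5) in FR > FFPE and 12 to 34 (median 17.5) in FFPE, with log2 fold changes in CPM of -0.22 (SE 0.309) and 1.33 (SE 0.338). Top2a was called in both groups, Kif20a and Cenpf in FFPE alone, and Cenpf turned negative there with TMM factors or DESeq2. Hmmr counted 85 to 160 (median 106.5) in FR, 10 to 41 (median 16) in FR > FFPE and 3 to 21 (median 10) in FFPE, with log2 fold changes in CPM of -2.07 (SE 0.384) and -0.37 (SE 0.414). Hmmr was called lower in FR > FFPE, with no overlap in counts. Kif11 counted 0 in all 6 FR libraries, 10 to 47 (median 28) in FR > FFPE and 5 to 13 (median 8.5) in FFPE. Against a floor of 3 counts over the FR group, its CPM was at least 67.2-fold higher in FR > FFPE and at least 136-fold higher in FFPE. Mcm3, Plk1, Aurkb and Cdkn3 were under the filter.

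**Figure D5:**
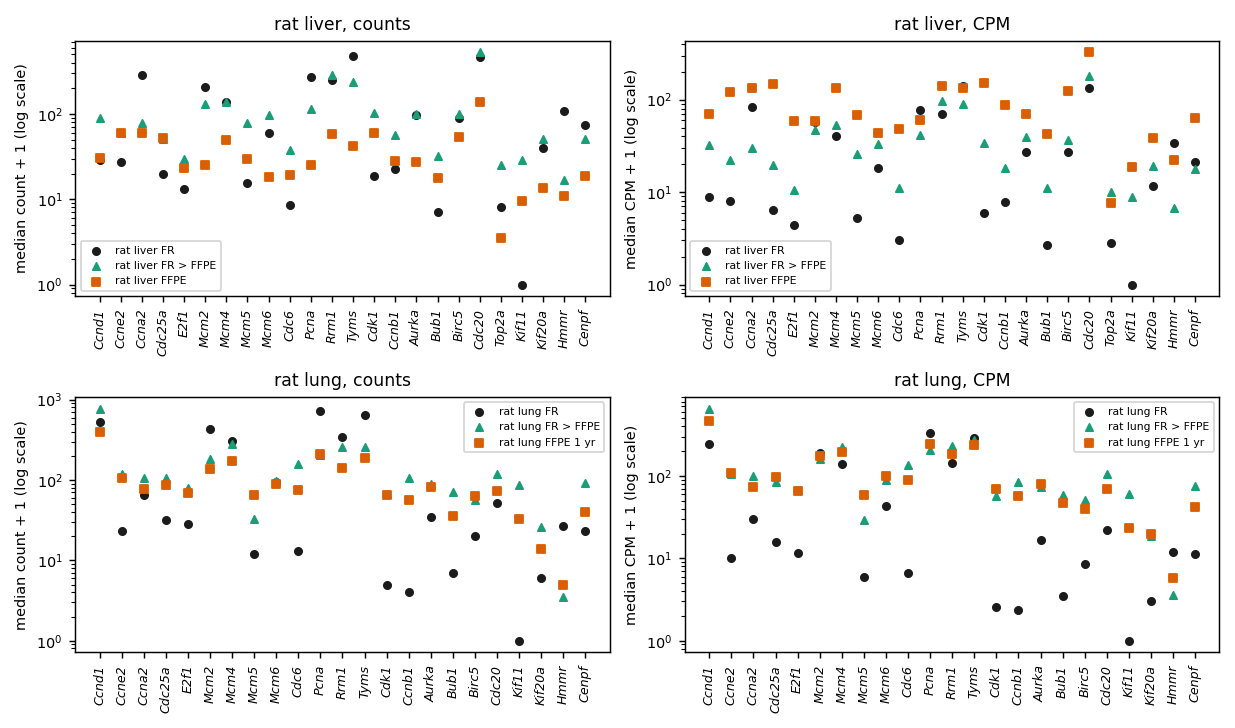
Median counts + 1 and median CPM + 1 of the members in rat liver and rat lung, on log axes, for FR and the embedded groups (n = 6 libraries, 5 in lung FR). In liver FFPE the raw counts lie at or below those of FR for many members while the CPM values lie above, and Kif11 rises from 0 counts in liver FR.

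In rat lung 16 of 23 members were called higher in both comparisons, as were 45.7% of all features. Both use the same FR libraries. The frozen lung library numbered 54 was left out because it held 12 counts in all and 0 for every member. Ccnd1 counted 429 to 796 (median 533) in FR, 496 to 1528 (median 775) in FR > FFPE and 99 to 738 (median 392) in FFPE 1 yr, with log2 fold changes in CPM of 1.39 (SE 0.131) and 0.81 (SE 0.13). Ccne2 counted 17 to 35 (median 22) in FR, 112 to 176 (median 116.5) in FR > FFPE and 69 to 115 (median 105) in FFPE 1 yr, with log2 fold changes in CPM of 3.42 (SE 0.4) and 3.8 (SE 0.409). Ccna2 counted 57 to 72 (median 65) in FR, 74 to 248 (median 105.5) in FR > FFPE and 51 to 104 (median 76.5) in FFPE 1 yr, with log2 fold changes in CPM of 1.75 (SE 0.334) and 1.91 (SE 0.343). Ccnd1 met the fold criterion in FR > FFPE alone. Cdc25a counted 20 to 49 (median 31) in FR, 81 to 146 (median 104.5) in FR > FFPE and 47 to 113 (median 85.5) in FFPE 1 yr, with log2 fold changes in CPM of 2.61 (SE 0.405) and 3.1 (SE 0.416). E2f1 counted 19 to 36 (median 27) in FR, 59 to 117 (median 77.5) in FR > FFPE and 17 to 89 (median 67) in FFPE 1 yr, with log2 fold changes in CPM of 2.62 (SE 0.317) and 2.64 (SE 0.322). Both were called in both groups.

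Of the licensing members, Mcm5, Mcm6 and Cdc6 were called in both lung comparisons. Mcm5 counted 7 to 15 (median 11) in FR, 19 to 244 (median 32) in FR > FFPE and 10 to 101 (median 64.5) in FFPE 1 yr, with log2 fold changes in CPM of 3.23 (SE 0.504) and 3.76 (SE 0.515). Mcm6 counted 84 to 107 (median 93) in FR, 67 to 543 (median 97) in FR > FFPE and 30 to 142 (median 87) in FFPE 1 yr, with log2 fold changes in CPM of 1.5 (SE 0.33) and 1.25 (SE 0.335). FR > FFPE library 59 stood apart for both, at 136.6 CPM for Mcm5 (19.7 to 38.6 in the other 5) and 303.9 CPM for Mcm6 (54.5 to 101.1). Without it Mcm6 was at 0.96 in FR > FFPE, under the fold criterion, and Mcm5 at 2.48, still called. Cdc6 counted 9 to 13 (median 12) in FR, 79 to 239 (median 159.5) in FR > FFPE and 16 to 110 (median 73.5) in FFPE 1 yr, with log2 fold changes in CPM of 4.71 (SE 0.419) and 4.06 (SE 0.418). Cdc6 had more counts in every embedded library than in any FR library. Mcm2, Mcm4, Pcna, Rrm1 and Tyms were called in neither.

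The 2 mitotic entry genes tested in rat lung were called higher in both comparisons. Cdk1 counted 2 to 4 (median 4) in FR, 33 to 164 (median 66.5) in FR > FFPE and 19 to 85 (median 64) in FFPE 1 yr, with log2 fold changes in CPM of 5.2 (SE 0.401) and 5.41 (SE 0.406). Ccnb1 counted 1 to 5 (median 3) in FR, 75 to 150 (median 105.5) in FR > FFPE and 29 to 67 (median 55) in FFPE 1 yr, with log2 fold changes in CPM of 5.86 (SE 0.512) and 5.62 (SE 0.518). Neither passed 5 counts in any FR library, and every embedded library held 19 or more. Aurka counted 24 to 42 (median 34) in FR, 68 to 104 (median 89) in FR > FFPE and 20 to 114 (median 80) in FFPE 1 yr, with log2 fold changes in CPM of 2.29 (SE 0.292) and 2.61 (SE 0.298). Bub1 counted 4 to 13 (median 6) in FR, 49 to 90 (median 70.5) in FR > FFPE and 12 to 57 (median 34.5) in FFPE 1 yr, with log2 fold changes in CPM of 4.19 (SE 0.456) and 3.91 (SE 0.463). Birc5 counted 9 to 24 (median 19) in FR, 24 to 193 (median 56) in FR > FFPE and 4 to 92 (median 63) in FFPE 1 yr, with log2 fold changes in CPM of 2.84 (SE 0.488) and 3.1 (SE 0.497). All 3 were called in both comparisons. Cdc20 counted 39 to 55 (median 51) in FR, 63 to 337 (median 119) in FR > FFPE and 23 to 94 (median 71) in FFPE 1 yr, with log2 fold changes in CPM of 2.37 (SE 0.319) and 1.85 (SE 0.323).

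Of 4 spindle genes tested in rat lung, 3 were called higher. Kif20a counted 3 to 7 (median 5) in FR, 12 to 35 (median 25) in FR > FFPE and 4 to 32 (median 13) in FFPE 1 yr, with log2 fold changes in CPM of 3.1 (SE 0.388) and 3.1 (SE 0.397). Cenpf counted 13 to 24 (median 22) in FR, 62 to 141 (median 90.5) in FR > FFPE and 11 to 61 (median 38.5) in FFPE 1 yr, with log2 fold changes in CPM of 3.15 (SE 0.3) and 2.32 (SE 0.302). Both were called higher in both. Kif11 counted 0 or 1 in the FR libraries, 46 to 102 (median 86.5) in FR > FFPE and 3 to 41 (median 32) in FFPE 1 yr, and was called higher in both. Hmmr counted 10 to 32 (median 26) in FR, 1 to 15 (median 2.5) in FR > FFPE and 2 to 8 (median 4) in FFPE 1 yr, with log2 fold changes in CPM of -1.57 (SE 0.451) and -1.08 (SE 0.467). Hmmr was the 1 member called lower, in both lung comparisons, as it was in liver FR > FFPE vs. FR. Its call in FFPE 1 yr was lost in 9 of the 17 fits without 1 library. Mcm3, Aurkb, Plk1, Top2a and Cdkn3 were under the filter in lung. Libraries of 1 tissue share their FR group in both comparisons, so the 2 sets of values are not independent.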

How the data were processed

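Mouse libraries (48) were sequenced after ribosomal RNA depletion. The authors aligned reads with STAR 2.5.3a to mm10 and deposited estimated counts per RefSeq gene from Partek Flow, of which 92% are whole, and log2 CPM values made by the authors from them, used here only for their divisor. AML12 and rat tables hold counts per TempO-Seq feature, deposited by the authors, and in rat lung not all of them are whole. The 36 members and all lists were chosen with earlier results of these data known. Counts were rounded, CPM was taken on column totals, and edgeR 4.0.16 quasi-likelihood tests (R 4.3.3) were run with Benjamini-Hochberg adjustment over all features tested, in 1 fit per table. Mouse genes with a geometric mean of 1 count or less were left out (13370 of 24543 kept), and filterByExpr was used for AML12 and rat. Calls required a fold change of 2 or more and an adjusted p below 0.05. The SE is the log2 fold change over the root of the F statistic. All 36 members are accounted for. Full values are given for Mki67, Top2a, Ccnd1 and Pcna, for the 10 members with the largest FR response among those called in 2 or more preparations, for members called in AML12 or rat, and, where none was called, for the 3 smallest adjusted p. The rest of the values shown complete their role group. In pathway lists, the 2 largest changes called are named. Pieces of 1 liver share a mouse number: deviations from group means correlated above 0.1 in 72 of 72 same-mouse pairs (median r 0.709, against -0.127 between mice, over 7693 genes). No 2 replicates agreed within sampling noise. The frozen rat lung library numbered 54, with 12 counts in all, was left out. Alternatives were TMM factors, DESeq2 1.42.0, other filters, the authors' library size, a term for the L number of the mouse titles, the mouse as a block, single preparations and leaving out libraries. The pipelines were tested on simulated data.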

Additional observations from a re-analysis of the deposited data

Results flagged for a closer look

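Gaps of single libraries were compared with Dixon's 95% limit in 126 groups of 5 or 6 libraries. It flags about 1 group in 20 by chance, and 14 groups were past it. In 5 of these the gene was Ccnd1, in 2 mice. PB mouse 80B measured 38.3 CPM in FR (the other 5 PB mice 20.1 to 24.7), 48.7 CPM in FR > FFPE (27.9 to 35.6), 48.8 CPM in FR > OH (24.6 to 29.6) and 54.6 CPM in FFPE (27.3 to 36.7). Con mouse 8A measured 66.7 CPM in FFPE (25.4 to 34.4). These are pieces of the same livers and not separate animals.

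In Con, mouse 8A stood apart for Kif20a in FR at 1.36 CPM (others 0.844 to 0.938), for Birc5 in FR at 0.256 CPM, the lowest there (0.547 to 0.691), and for Hmmr in FFPE at 3.07 CPM (0 to 0.337). Mouse 8C stood apart in FR > FFPE for Cenpf at 2.53 CPM (0.843 to 1.45) and Plk1 at 0.879 CPM (0.113 to 0.374), and in FFPE for Cenpf at 4.34 CPM (0 to 0.958). Mouse 8D stood apart for Kif20a in FR > OH at 1.53 CPM (0.89 to 1.1), and PB mouse 20B for Birc5 in FFPE at 8.88 CPM (1.65 to 4.12). Rat lung FR > FFPE library 59 had a member sum of 4220 CPM (others 2700 to 3100).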

How the results depend on the processing

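The PB counts of 24, 16, 23 and 26 members in FR, FFPE, FR > FFPE and FR > OH stayed within 1.5 times under TMM factors, DESeq2, the authors' library size, other filters, adjusted p alone and fits of 1 preparation, and no alternative called a member lower. Leaving out 1 mouse gave 17 to 24, 13 to 20, 16 to 25 and 18 to 28. The term for the L number of the titles gave 2 in FR, where 2 PB libraries share a number with Con, and 14 in FR > OH. Without mice 20B and 80B, chosen after seeing the data, the counts were 13 in FR, 14 in FR > FFPE and 13 in FR > OH. That term could not be fitted for PB or its interaction in FR > FFPE, FR > FFPE vs. FR in PB, or FR > OH vs. FR. The mouse as a replicate block called 0 members in all 3 preservation and all 3 interaction tests, as without it.

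FFPE vs. FR, with 0 members, gave 2 by adjusted p alone, 1 with TMM factors, DESeq2 or the L number term, 8 with the authors' library size and 0 to 1 leaving out 1 mouse, at 1 without 18B, 18D or 75C. FR > OH vs. FR gave 1 by adjusted p alone. AML12 at 0.1% gave 3 by adjusted p alone, 0 with TMM factors, DESeq2 or no filter, and 0 to 1 leaving out 1 library. Rat liver FR > FFPE, with 13 calls in both directions together, gave 20 by adjusted p alone. Leaving out 1 library gave 13 to 14 there, 18 to 20 in liver FFPE, 17 to 19 in lung FR > FFPE and 16 to 17 in lung FFPE 1 yr. In liver FFPE, 5 members turned negative under TMM factors and DESeq2 respectively: Ccna2 (-0.725, -0.5328), Mcm6 (-0.3706, -0.2399), Aurka (-0.2096, -0.07065), Cdc20 (-0.4362, -0.2987) and Cenpf (-0.3383, -0.1879). The cause was not tested. Members near 0 counts in FFPE and AML12 limit what these depths can show.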
